A study of Mus musculus with 90 samples.

Results

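The ionotropic glutamate receptor and GABA-A receptor subunits, the proteins that form the main fast excitatory and inhibitory ion channels of the brain, were followed across 3 brain regions of male mice. The members were the protein-coding genes whose symbols name an AMPA (Gria), kainate (Grik), NMDA (Grin) or delta (Grid) glutamate receptor subunit or a GABA-A receptor subunit (Gabr). The rule found 37 genes among 20214 protein-coding identifiers: 4 AMPA, 5 kainate, 7 NMDA and 2 delta subunits, 16 GABA-A subunits and 3 rho subunits, which form a GABA-A subfamily. The 90 RNA-seq libraries came from resident C57BL/6J males that had lived with a female to establish a territory. Residents met either a BALB/cJ male intruder held in a wire mesh cage for 5 min or, as controls, the same cage holding a paper cup. They were sampled 30, 60 or 120 min later, and amygdala, frontal cortex and hypothalamus were dissected from the same animals. Of the 18 groups of region, time and condition, 15 held 5 libraries, the 30 min control group of hypothalamus held 3, and both 120 min groups of frontal cortex held 6. All groups share the strain, the male sex, the cohabitation and the cage. Within a region and time the labelled treatments differ in the intruder, and the leading sequencing index in the column labels differs as well. In frontal cortex at 120 min all 6 control libraries carry one index and all 6 intruder libraries another, so the intruder and the index cannot be told apart there. In amygdala 5 controls and 1 intruder library share an index at 120 min, and 1 control and 5 intruder libraries share one at 60 min. Amygdala and hypothalamus libraries share no leading index, and frontal cortex shares an index with each of them in only some groups. Region is thus mostly tied to the index, and the part of the index in the region differences was not tested. The libraries are whole dissected regions, with all cell types mixed.

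AMPA receptors carry most fast excitatory current, and their GluA2 subunit, the product of Gria2, keeps calcium out of the channel. NMDA receptors need the GluN1 subunit from Grin1, while the GluN2 subunits from Grin2a to Grin2d set how long the channel stays open and GluN3 subunits bind glycine. GABA-A receptors are chloride channels of alpha and beta subunits joined by a gamma, delta, epsilon or theta subunit. Most receptors with a gamma subunit gather at synapses, and those with the delta subunit (Gabrd), often beside alpha 4 (Gabra4), lie outside synapses and carry tonic inhibition. The epsilon (Gabre) and theta (Gabrq) subunits are known for a narrow distribution that includes the hypothalamus.

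Each library held 38.6 M to 58.9 M reads counted in genes (median 49.0 M, with M for 1e6 reads). The labelled regions were checked against their defining markers: the summed level of 7 cortical excitatory neuron genes was 1810 to 2680 CPM (counts per 1e6 counted reads, the unit of all levels below) in frontal cortex, 439 to 1640 in amygdala and 51.6 to 270 in hypothalamus. A list of 10 hypothalamic genes summed to 697 to 1850 CPM in hypothalamus, 9.61 to 88.1 CPM in amygdala and 1.31 to 30.0 CPM in frontal cortex. The 7 amygdala markers summed to 288 to 611 CPM in amygdala, 146 to 224 CPM in frontal cortex and 113 to 190 CPM in hypothalamus. The amygdala sum was carried mainly by Lypd1 (mean 291 CPM in amygdala and 51.1 CPM in frontal cortex), and 4 of the 7 amygdala markers averaged higher in frontal cortex. The 7 striatal marker genes summed to 305 to 2810 CPM across the amygdala libraries, 225 to 1570 CPM in frontal cortex and 177 to 336 CPM in hypothalamus, and their part in the region differences was not tested. Apart from these striatal genes, 7 libraries carried the highest summed markers of a neighbouring region: 4 hypothalamus libraries for thalamus, 1 hypothalamus library for cortex, 1 frontal cortex library (120 min, intruder, replicate 1) for hypothalamus and 1 amygdala library (60 min, intruder, replicate 4) for cerebellar granule cells. Their values are given beside the members they touch. Whether 2 samples of a group share a source other than the animal is not stated. The p-values of comparisons within a region measure the spread between these animals. Those of comparisons across regions measure the spread left within animals, since the animal was a block there.

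The regions differed in nearly every subunit. With expression in frontal cortex compared with hypothalamus, 34 of the 35 members that passed the filter on low counts were called different at an adjusted p below 0.05. Of all 18337 genes tested, 87.5% were called, so the members' share lies near that of all genes. Higher in frontal cortex were 14 members (42.3% of all genes) and lower were 20 (45.2% of all genes). Differences of at least 2-fold were called for 17 members, 7 higher and 10 lower, against 21.8% of all genes. The median absolute log2 difference was 0.79 for the members and 0.42 for all genes. For 19 members no frontal cortex library overlapped any hypothalamus library, as for 27.3% of all genes. In these bulk samples, fewer cells of a type and less RNA per cell cannot be told apart. The members left untested, Gabrp and Gabrr3, never exceeded 3 and 9 reads in a library.

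The amygdala was compared with both other regions. Compared with hypothalamus, 31 of 35 members were called (80.5% of all genes), 16 higher (40.7%) and 15 lower (39.8%) in amygdala, with 9 past 2-fold (13% of all genes) and 14 without overlap (14.8% of all genes). Compared with frontal cortex, 30 members were called (77% of all genes), 17 higher (41.2%) and 13 lower (35.8%), with 8 past 2-fold (9.35% of all genes) and 6 without overlap (6.33% of all genes). The members' median absolute log2 differences were 0.48 and 0.40, against 0.27 and 0.22 over all genes.

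**Figure D1:**
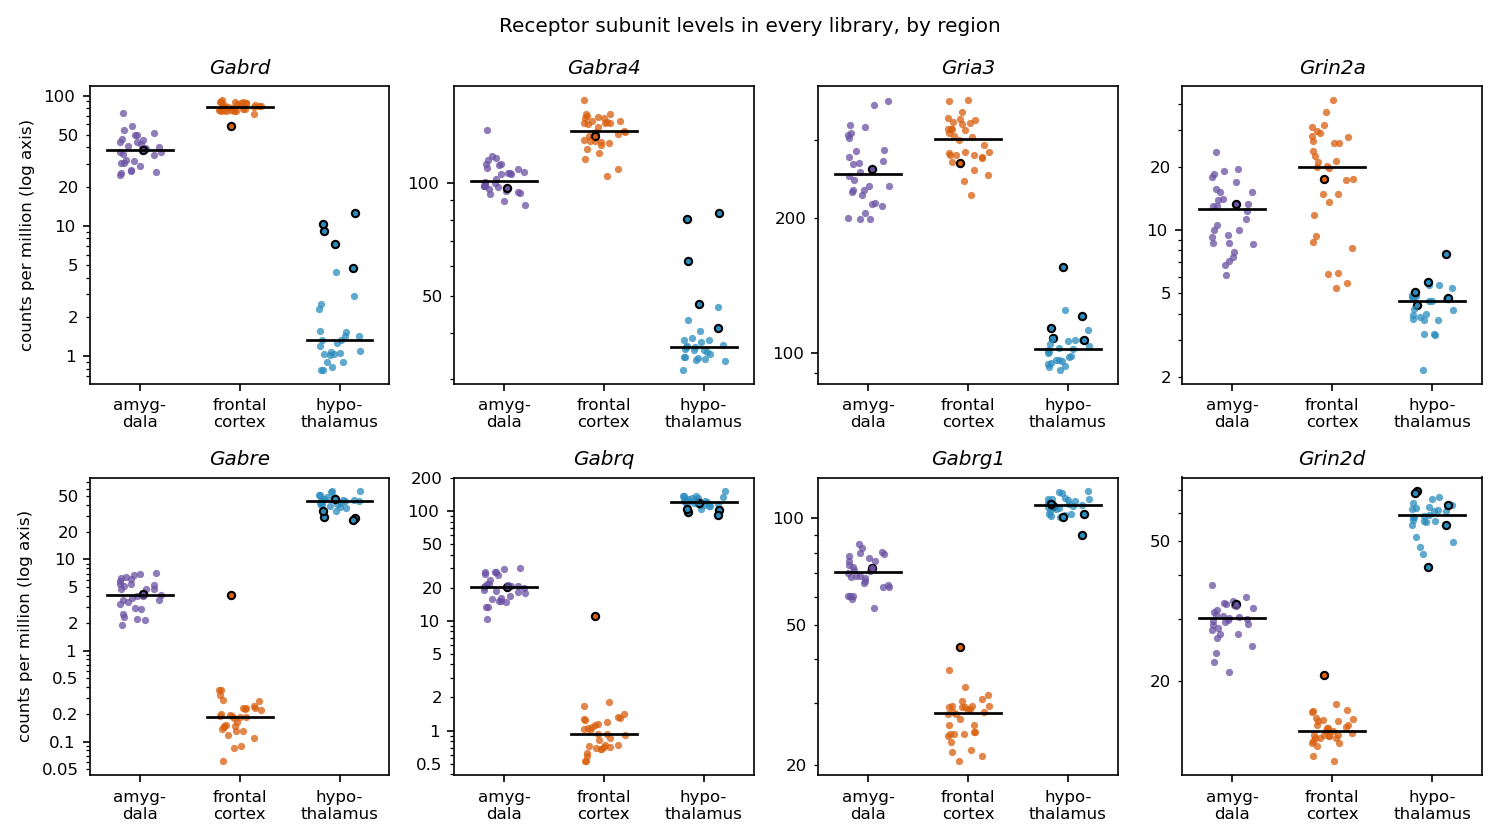
Level of 8 receptor subunits in every library (CPM, log axis) by region, with a line at each region's median and black rings around the 7 libraries that carry the highest markers of a neighbouring region. Gabre and Gabrq rise from frontal cortex (medians 0.189 and 0.933 CPM) to hypothalamus (44.1 and 121 CPM), and Gabrd runs the other way (81.5 and 1.32 CPM).

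Among the AMPA receptor genes, Gria2 and Gria3 were higher and Gria1 and Gria4 lower in frontal cortex than in hypothalamus. Gria3, the GluA3 subunit, had a lowest, median and highest level of 226, 302 and 369 CPM in frontal cortex, 199, 251 and 367 in amygdala, and 91.5, 102 and 155 in hypothalamus. No hypothalamus library reached the lowest library of the other regions, and its highest value came from the hypothalamus library with raised cortical markers (120 min control, replicate 2). The log2 difference between frontal cortex and hypothalamus was 1.51 (SE 0.045, 2.84-fold, adjusted p = 1.37e-34). Gria2 stood at 490, 709 and 854 CPM in frontal cortex, at 604, 695 and 794 in amygdala, and at 357, 416 and 484 in hypothalamus. Cortex and amygdala were not called different (log2 0.01, SE 0.025, adjusted p = 0.67), and they exceeded hypothalamus by 0.74 and 0.75. Gria1, the GluA1 subunit that is inserted during synaptic strengthening, was lowest in frontal cortex, with medians of 315 CPM in frontal cortex, 494 in hypothalamus and 554 in amygdala. Amygdala exceeded frontal cortex in Gria1 by 0.79 on the log2 scale (SE 0.027, 1.73-fold, adjusted p = 2.65e-31) with no overlap between libraries. Gria4 differed by at most 1.17-fold between 2 regions, though each difference was called.

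Compared with one another per length, the AMPA subunits changed their mix. As a share of the summed CPM per kilobase of annotated exon over the 4 genes, Gria3 averaged 20.5% in frontal cortex, 14.4% in amygdala and 7.48% in hypothalamus, while Gria1 averaged 35.8%, 50.3% and 57.8%. The ratio of Gria1 to Gria2 per kilobase was 0.896, 1.19 and 1.74 (lowest, median, highest) in frontal cortex, 1.70, 2.02 and 2.37 in amygdala, and 2.47, 3.07 and 3.61 in hypothalamus, so the amygdala and hypothalamus libraries did not overlap. The order of Gria1 and Gria2 within a region depends on the length used: by coding length instead of exon length, Gria2 came first in amygdala and frontal cortex. Differences between regions in one gene do not depend on its length.

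Of the kainate receptor genes, 1 of 5 was higher and 4 were lower in frontal cortex than in hypothalamus (42.3% and 45.2% of all genes). Grik5, which encodes a high-affinity partner subunit and was the first of the family per kilobase in each region, stood at 210, 254 and 303 CPM in frontal cortex, at 183, 222 and 246 in amygdala, and at 123, 147 and 165 in hypothalamus. Hypothalamus lay below both other regions in every library, by 0.79 and 0.57 on the log2 scale. Grik1, a subunit that can form channels on its own, was lowest in cortex: 7.96, 9.64 and 14.8 CPM there, against 18.5, 24.0 and 28.3 in amygdala and 17.3, 23.4 and 32.4 in hypothalamus. Its frontal cortex libraries overlapped neither region (log2 difference from hypothalamus -1.29, SE 0.051, adjusted p = 2.89e-29), and amygdala and hypothalamus differed by 0.02 (SE 0.049, adjusted p = 0.71). Grik2 was highest in amygdala (median 102 CPM, against 57.2 in frontal cortex and 75.8 in hypothalamus). Grik3 and Grik4 were highest in hypothalamus, by at most 1.77-fold.

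The NMDA receptor genes showed an exchange of GluN2 subunits between regions. Grin1, the obligatory subunit, stood at 509, 612 and 682 CPM in frontal cortex, at 404, 485 and 545 in amygdala, and at 317, 361 and 393 in hypothalamus. Frontal cortex exceeded hypothalamus in Grin1 by 0.74 on the log2 scale (SE 0.024, 1.68-fold, adjusted p = 1.8e-33). Grin2d, the subunit with the slowest channel closure, ran against it: 11.8, 14.4 and 20.9 CPM in frontal cortex, 21.2, 30.2 and 37.4 in amygdala, and 42.2, 59.2 and 69.4 in hypothalamus. The 3 regions did not overlap in Grin2d, and its highest frontal cortex value came from the library with raised hypothalamic markers. The difference between frontal cortex and hypothalamus was -1.99 (SE 0.037, 3.98-fold, adjusted p = 8.04e-44), the smallest adjusted p of any member in that comparison.

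Grin2a, Grin2b and Grin2c were higher in frontal cortex and in amygdala than in hypothalamus, against Grin2d, and for Grin2b frontal cortex and amygdala were not called different (log2 -0.10, SE 0.121, adjusted p = 0.465). Grin2c stood at 50.5, 68.4 and 80.9 CPM in frontal cortex, at 47.4, 58.2 and 71.9 in amygdala, and at 22.2, 27.6 and 36.1 in hypothalamus, and was 2.47-fold higher in frontal cortex than in hypothalamus (adjusted p = 1.2e-35). Grin2a, whose GluN2A channels close quickly, stood at 5.27, 20.1 and 41.8 CPM in frontal cortex, at 6.09, 12.7 and 23.4 in amygdala, and at 2.15, 4.60 and 7.66 in hypothalamus. Grin2a and Grin2b had wide ranges within frontal cortex that overlapped the other regions, and their levels in frontal cortex moved with time after the encounter. Averaged over times and conditions, frontal cortex exceeded hypothalamus 4.03-fold in Grin2a (log2 2.01, SE 0.12, adjusted p = 2.47e-22) and 2.57-fold in Grin2b (log2 1.36, SE 0.13, adjusted p = 9.75e-14). The NMDA subunit with a glycine site in place of a glutamate site, GluN3A from Grin3a, was low in cortex (30.3, 38.5 and 52.8 CPM), while amygdala (median 102 CPM) and hypothalamus (median 101 CPM) were not called different (log2 -0.02, SE 0.048, adjusted p = 0.67). Grin3b reached at most 0.973 CPM in any library.

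As a share of the 4 GluN2 genes per kilobase of exon, Grin2d averaged 12.5% in frontal cortex (range 9.94 to 21.1%), 25.7% in amygdala (19.7 to 31.0%) and 58.9% in hypothalamus (50.6 to 63.1%). Grin2c averaged 76.6%, 65.9% and 37.3%, and Grin2a and Grin2b together made up the remainder, whose size depends on the length used. The annotated exons of Grin2a and Grin2b span 17933 and 24842 bp, of which 4392 and 4446 bp are coding. The annotation release the authors counted over is not given in the sources used here, and its part in these shares was not tested. By coding length, Grin2c was still first in frontal cortex and amygdala and Grin2d first in hypothalamus, but Grin2d fell to last in frontal cortex. Grin2a and Grin2b made up a larger part by coding length in each region. Per coding kilobase they averaged 4.55 and 4.76 CPM in frontal cortex, beside 18.55 for Grin2c and 3.715 for Grin2d. Per exon kilobase these were 1.11 and 0.852, beside 13.7 and 2.21.

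The delta receptor genes, whose products bind the secreted cerebellins rather than acting as ordinary glutamate channels, include Grid1. It was lowest in frontal cortex, with medians of 59.8 CPM in frontal cortex, 70.7 in amygdala and 84.5 in hypothalamus. Hypothalamus libraries did not overlap frontal cortex in Grid1 (log2 difference -0.48, SE 0.024).

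**Figure D2:**
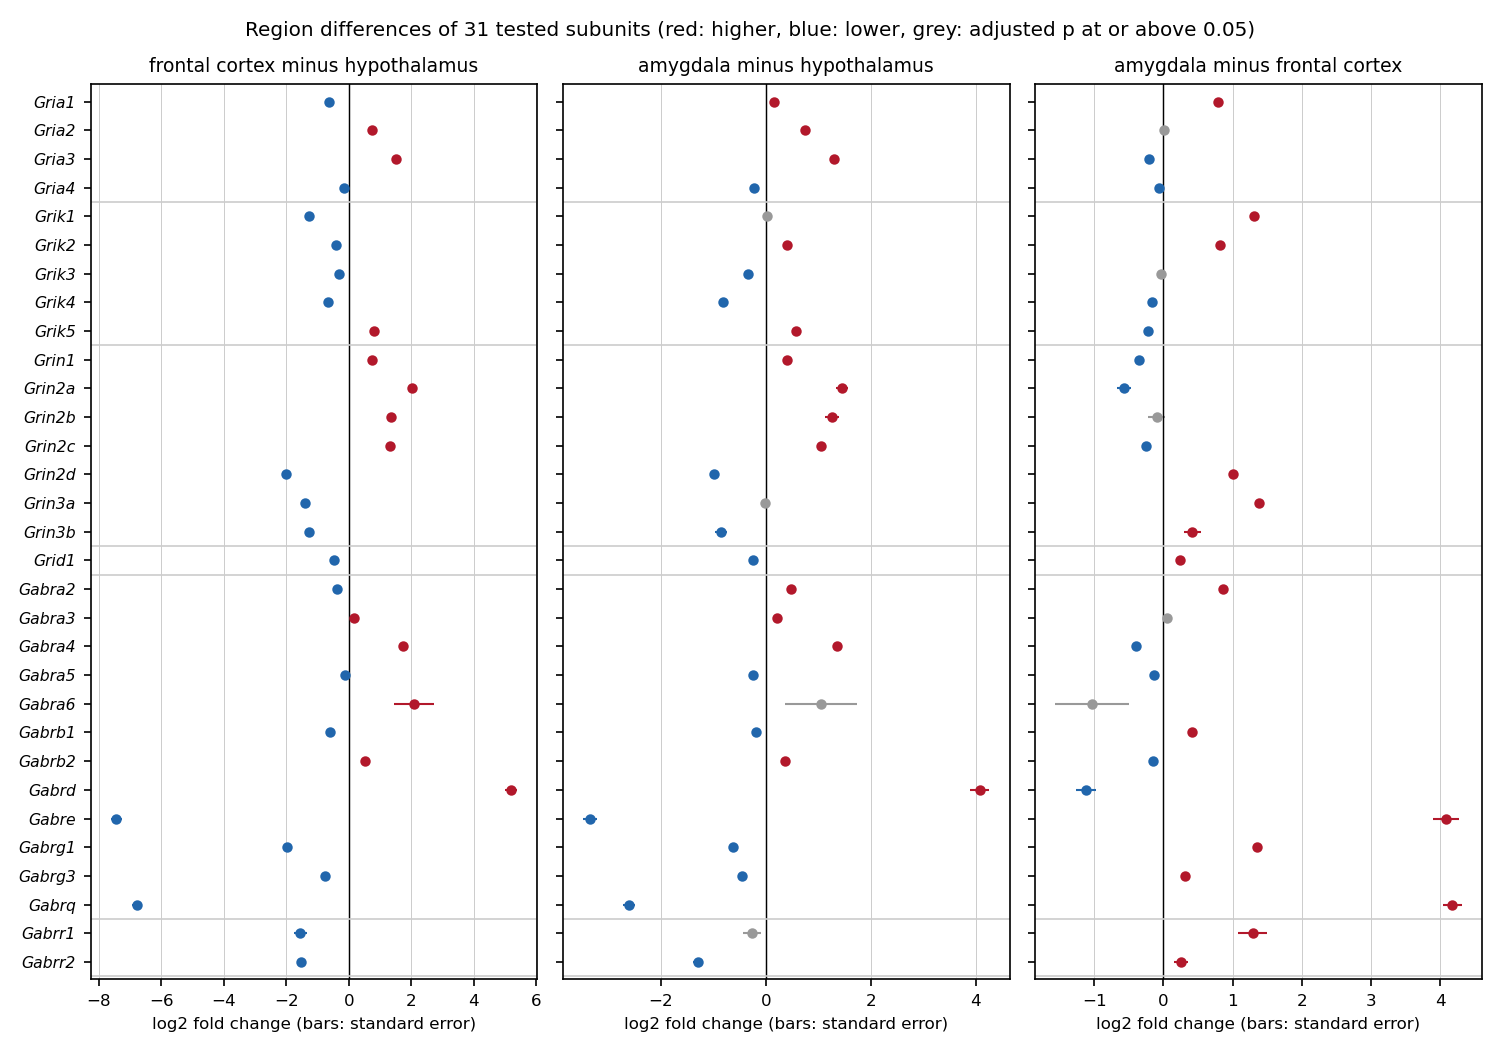
Log2 differences between regions for 31 of the 35 tested members (points, with standard errors as bars), grouped by receptor family. Gabrd lies at 5.19 and Gabre and Gabrq at -7.43 and -6.78 in frontal cortex against hypothalamus, far outside the remaining members, which lie between -1.99 and 2.09.

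The widest regional differences among the members were in 3 less common GABA-A subunits, epsilon, theta and delta. Gabre stood at 0.0604, 0.189 and 4.07 CPM in frontal cortex, at 1.90, 4.10 and 7.06 in amygdala, and at 26.8, 44.1 and 56.4 in hypothalamus. Gabrq stood at 0.522, 0.933 and 11.1 CPM in frontal cortex, at 10.5, 20.3 and 30.2 in amygdala, and at 92.7, 121 and 152 in hypothalamus. Both formed a step from cortex to amygdala to hypothalamus, broken only by the frontal cortex library with raised hypothalamic markers, which holds both frontal cortex maxima. Frontal cortex was 173-fold lower than hypothalamus in Gabre (log2 -7.43, SE 0.18, adjusted p = 4.07e-39) and 110-fold lower in Gabrq (log2 -6.78, SE 0.14, adjusted p = 4.6e-42). Amygdala was 10.2-fold and 6.09-fold lower than hypothalamus in the same genes. Without the 7 libraries, the differences between frontal cortex and hypothalamus were -7.87 and -7.01.

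Gabrd ran in the opposite direction. It stood at 58.3, 81.5 and 93.2 CPM in frontal cortex, at 24.6, 38.4 and 73.7 in amygdala, and at 0.781, 1.32 and 12.5 in hypothalamus. The hypothalamus never overlapped the other regions, and its highest values of 12.5, 10.4 and 9.10 CPM came from libraries with raised thalamic markers, where thalamic genes summed to as much as 407 CPM against a hypothalamic median of 143. Frontal cortex was 36.4-fold higher than hypothalamus (log2 5.19, SE 0.20, adjusted p = 1.03e-29) and amygdala was 2.17-fold lower than frontal cortex (log2 -1.11, SE 0.14, adjusted p = 9.08e-10). Without the 7 libraries the log2 differences of frontal cortex and amygdala from hypothalamus grew from 5.19 to 5.92 and from 4.07 to 4.82, a move of over 1.5-fold on the linear scale.

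The gamma subunits Gabrg1 and Gabrg3 were lower in frontal cortex than in hypothalamus. Gabrg1 stood at 20.5, 28.2 and 43.2 CPM in frontal cortex, at 55.7, 70.4 and 84.4 in amygdala, and at 89.5, 109 and 120 in hypothalamus. None of these Gabrg1 ranges overlapped (frontal cortex against hypothalamus, log2 -1.97, SE 0.045, 3.91-fold, adjusted p = 5.21e-40). Gabrg3 was 1.69-fold lower in frontal cortex than in hypothalamus. Per kilobase of exon, Gabrd averaged 37.7% of the gamma, delta and epsilon genes in frontal cortex (29.4 to 45.9%), 20.7% in amygdala (13.6 to 34%) and 1.37% in hypothalamus (0.393 to 5.96%), Gabrg1 averaged 4.72%, 13.7% and 19.8%, and Gabre averaged 0.0918%, 1.43% and 13.0%.

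**Figure D3:**
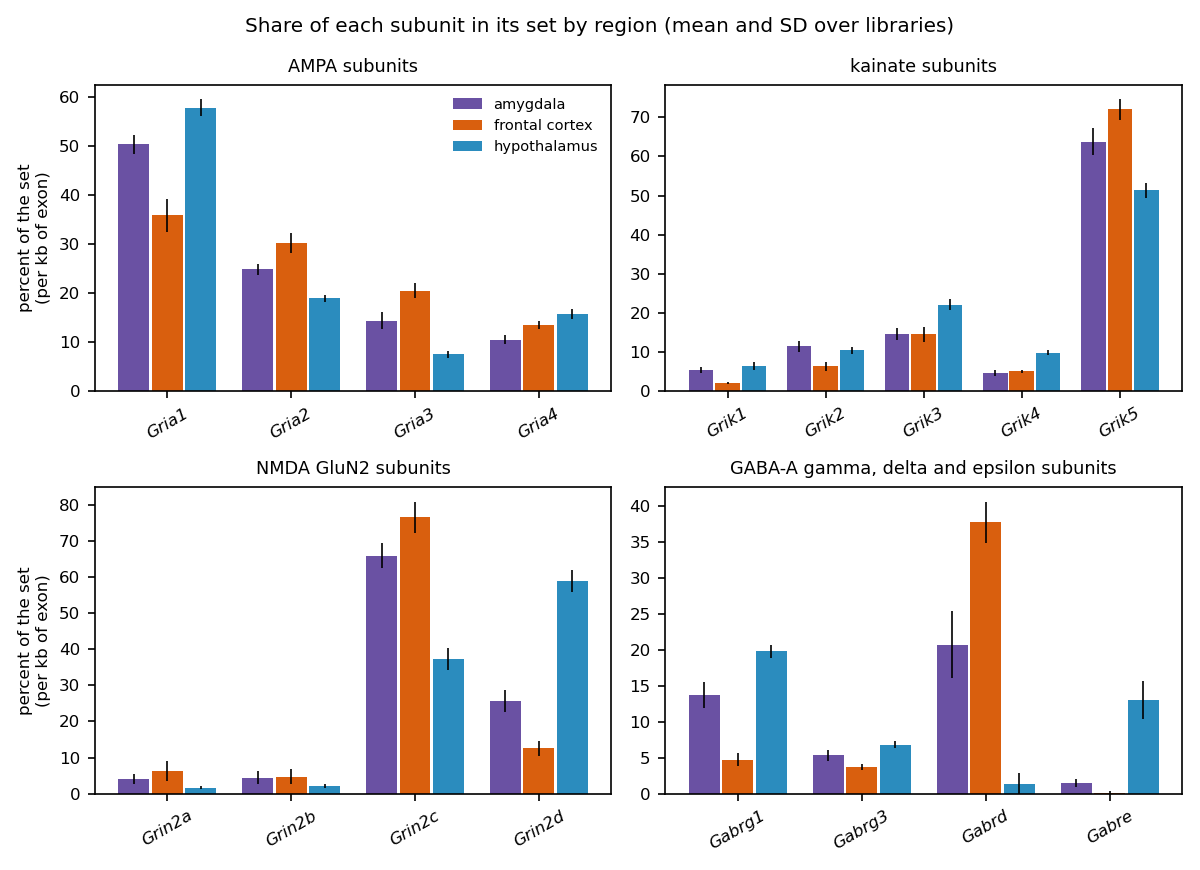
Mean share of each subunit in its family's summed CPM per kilobase of exon, by region, for members of the AMPA, kainate, GluN2 and gamma-delta-epsilon groups, with the SD over libraries as thin lines. Grin2d grows from 12.5% to 58.9% of GluN2 from frontal cortex to hypothalamus while Gabrd shrinks from 37.7% to 1.37% of its group. By coding length the share of Gabrd is smaller in each region.

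Among the alpha subunits, Gabra4, Gabra3 and Gabra6 were higher and Gabra2 and Gabra5 lower in frontal cortex than in hypothalamus. Gabra4 stood at 105, 137 and 167 CPM in frontal cortex, at 87.7, 102 and 139 in amygdala, and at 31.8, 36.7 and 83.5 in hypothalamus. Its highest hypothalamus values, 83.5, 80.4 and 62.0 CPM, came from the libraries with raised thalamic markers, and none reached the lowest library of the other regions. The log2 difference between frontal cortex and hypothalamus was 1.75 (SE 0.055, 3.36-fold, adjusted p = 9.06e-34), and 1.88 without the 7 libraries. Gabra2 was highest in amygdala, at 38.2, 56.0 and 79.4 CPM, against 18.1, 31.7 and 44.2 in frontal cortex and 32.3, 40.2 and 53.1 in hypothalamus. Amygdala exceeded frontal cortex in Gabra2 by 0.86 on the log2 scale (SE 0.045, 1.82-fold, adjusted p = 1.45e-23). Gabra5 differed by at most 1.19-fold between 2 regions, and its difference between frontal cortex and hypothalamus (log2 -0.11, adjusted p = 0.0172) was not called in the control libraries alone.

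Gabra6, a subunit of cerebellar granule cells, had medians of 0.160, 0.0654 and 0.0271 CPM in frontal cortex, amygdala and hypothalamus. A single amygdala library, the one with raised cerebellar granule cell markers, held 26.2 CPM. The beta subunit Gabrb2 was 1.43-fold higher in frontal cortex than in hypothalamus, and Gabrb1 was 1.52-fold lower there. The rho subunits, known from the retina, were low: Gabrr2 averaged 0.676 CPM in frontal cortex, 0.773 in amygdala and 1.91 in hypothalamus, with no overlap between hypothalamus and either other region, and Gabrr1 averaged at most 0.198 CPM in a region.

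Levels were also summed over each family. The AMPA genes summed to a mean of 1442 CPM in frontal cortex, 1631 in amygdala and 1159 in hypothalamus, and the NMDA genes to 773, 699.9 and 561. The GABA-A genes without rho summed to 1970.0, 1816 and 1687 CPM. All 37 members together made up 4691, 4686 and 3908 CPM.

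Many GABA-A subunit genes lie beside one another, and neighbours did not always share a regional order. In the chromosome 5 cluster, Gabrg1 (-1.97), Gabra2 (-0.39) and Gabrb1 (-0.61) were lower in frontal cortex than in hypothalamus while Gabra4 (1.75), which lies between Gabra2 and Gabrb1, was higher. Gabra4 and Gabrb1 point away from each other on opposite strands, and their annotated genes overlap by 196 bp at their starts. Whether the authors counted reads by strand is not given in the sources used here. The ratio of Gabra4 to Gabrb1 per kilobase had a median of 18.1 in frontal cortex, 9.74 in amygdala and 3.39 in hypothalamus. In the X chromosome cluster, Gabre and Gabrq were 173-fold and 110-fold lower in frontal cortex, and Gabra3, which lies between them, was 1.13-fold higher (log2 0.17, SE 0.042, adjusted p = 0.000244).

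The start regions of both pairs are printed because neighbours with unlike (Gabra4 and Gabrb1) and like (Gabre and Gabrq) regional orders can be set side by side. Each is the RefSeq window from 250 bases before to 50 bases after the annotated start in build GRCm38.p6, read 5′ to 3′ on the gene's own strand, and the capitals mark each GC box, searched as GGGCGG on both strands. The windows are Gabra4 at chr5:71658259-71658558 (minus strand), Gabrb1 at chr5:71657671-71657970 (plus strand), Gabre at chrX:72274672-72274971 (minus strand) and Gabrq at chrX:72824928-72825227 (plus strand).
Gabra4: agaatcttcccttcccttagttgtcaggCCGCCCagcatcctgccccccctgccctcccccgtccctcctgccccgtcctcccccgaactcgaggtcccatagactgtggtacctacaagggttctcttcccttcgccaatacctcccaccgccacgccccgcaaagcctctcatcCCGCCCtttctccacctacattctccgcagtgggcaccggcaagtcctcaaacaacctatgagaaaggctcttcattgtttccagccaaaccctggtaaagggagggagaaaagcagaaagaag
Gabrb1: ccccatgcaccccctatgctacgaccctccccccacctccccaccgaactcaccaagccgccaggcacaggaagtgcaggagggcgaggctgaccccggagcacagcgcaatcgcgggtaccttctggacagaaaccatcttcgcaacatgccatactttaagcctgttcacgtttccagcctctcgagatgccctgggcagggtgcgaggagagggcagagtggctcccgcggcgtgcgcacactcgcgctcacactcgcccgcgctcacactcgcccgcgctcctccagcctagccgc
Gabre: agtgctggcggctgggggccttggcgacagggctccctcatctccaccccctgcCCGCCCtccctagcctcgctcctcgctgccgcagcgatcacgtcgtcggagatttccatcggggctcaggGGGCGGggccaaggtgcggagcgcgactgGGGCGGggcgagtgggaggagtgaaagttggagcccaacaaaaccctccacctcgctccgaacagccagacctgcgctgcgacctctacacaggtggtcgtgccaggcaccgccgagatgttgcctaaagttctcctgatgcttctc
Gabrq: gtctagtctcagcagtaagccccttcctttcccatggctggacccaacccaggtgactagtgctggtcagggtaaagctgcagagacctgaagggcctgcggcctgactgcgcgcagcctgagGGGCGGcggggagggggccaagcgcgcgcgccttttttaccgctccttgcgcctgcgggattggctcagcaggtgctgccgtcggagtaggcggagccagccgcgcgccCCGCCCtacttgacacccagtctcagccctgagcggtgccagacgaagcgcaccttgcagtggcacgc
The RefSeq starts of Gabra4 and Gabrb1 are 387 bp apart and those of Gabre and Gabrq 550457 bp apart. The GC box was present 2 times in Gabra4, 0 times in Gabrb1, 3 times in Gabre and 2 times in Gabrq, and the windows held 12, 25, 24 and 23 CpG dinucleotides against a median of 7 over all 32851 windows. Of the 25 members with a RefSeq window, 12 held a GC box in any of their windows, and 35.7% of all single windows held a GC box. A gene can have several windows, so the counts of members and the shares of windows here are in unlike units. The TATA box (TATAAA) was in 3 of 25 (13.6% of all windows), the E-box (CACGTG) and the EGR site (GCGGGGGCG) in 1 each, Grin1 (7.15% and 2.91% of all windows), and the cAMP response element (TGACGTCA) and the AP-1 site (TGACTCA) in 0 of 25 (1.79% and 5.2% of all windows), all searched on both strands. A match is a run of letters, and its absence says only that these letters are not in this window.

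Transcripts of the receptors' partner proteins were compared between frontal cortex and hypothalamus as well, where 87.5% of all genes were called. Of 11 tested auxiliary subunits of AMPA receptors, which carry the channel to the synapse and slow its closing, 7 were higher and 3 lower in frontal cortex than in hypothalamus (42.3% and 45.2% of all genes were called higher and lower; list median log2 0.75, against -0.02 over all genes). Cacng3 (log2 2.70, SE 0.057) and Cnih3 (2.10, SE 0.089) led the higher ones, and Cacng5 (-1.21, SE 0.11) and Cacng4 (-1.05, SE 0.047) the lower ones. Both kainate receptor auxiliary subunits were higher, Neto1 by 1.26 and Neto2 by 0.50. Of 14 glutamate receptor scaffold genes, 11 were higher and 3 lower (42.3% and 45.2% of all genes; list median 0.996), with Homer1 (3.27, SE 0.047) and Dlgap1 (2.30, SE 0.059) highest and Grip2 (-0.28) and Grip1 (-0.26) lowest. Of 4 tested cerebellin genes, the secreted ligands of delta receptors, Cbln2 was higher (0.52), Cbln1 (-4.09, SE 0.16) and Cbln4 (-0.63) were lower, and Cbln3 was not called.

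On the inhibitory side, 7 of 13 scaffold and trafficking genes of GABA-A receptors were higher and 5 lower in frontal cortex (42.3% and 45.2% of all genes, list median 0.09), with Trak1 (0.97) above and Plcl1 (-0.68) and Lhfpl4 (-0.38) below. Of the genes for glycine receptors, the other inhibitory chloride channels, Glra1 (-5.44, SE 0.15), Glra4 (-4.22, SE 0.18), Glra3 and Glra2 were lower in frontal cortex. The beta subunit Glrb (0.53, SE 0.025) was higher, and the list median was -2.72 (45.2% and 42.3% of all genes were called lower and higher). Among metabotropic glutamate and GABA-B receptors, 5 of 9 were higher and 2 lower (again 42.3% and 45.2% of all genes), with Grm2 (1.75) and Grm3 (1.35) above and Grm7 (-0.13) below. Of the chloride cotransporters, which set the direction of GABA current, Slc12a5 was higher (0.13) and Slc12a2 lower (-0.58).

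**Figure D4:**
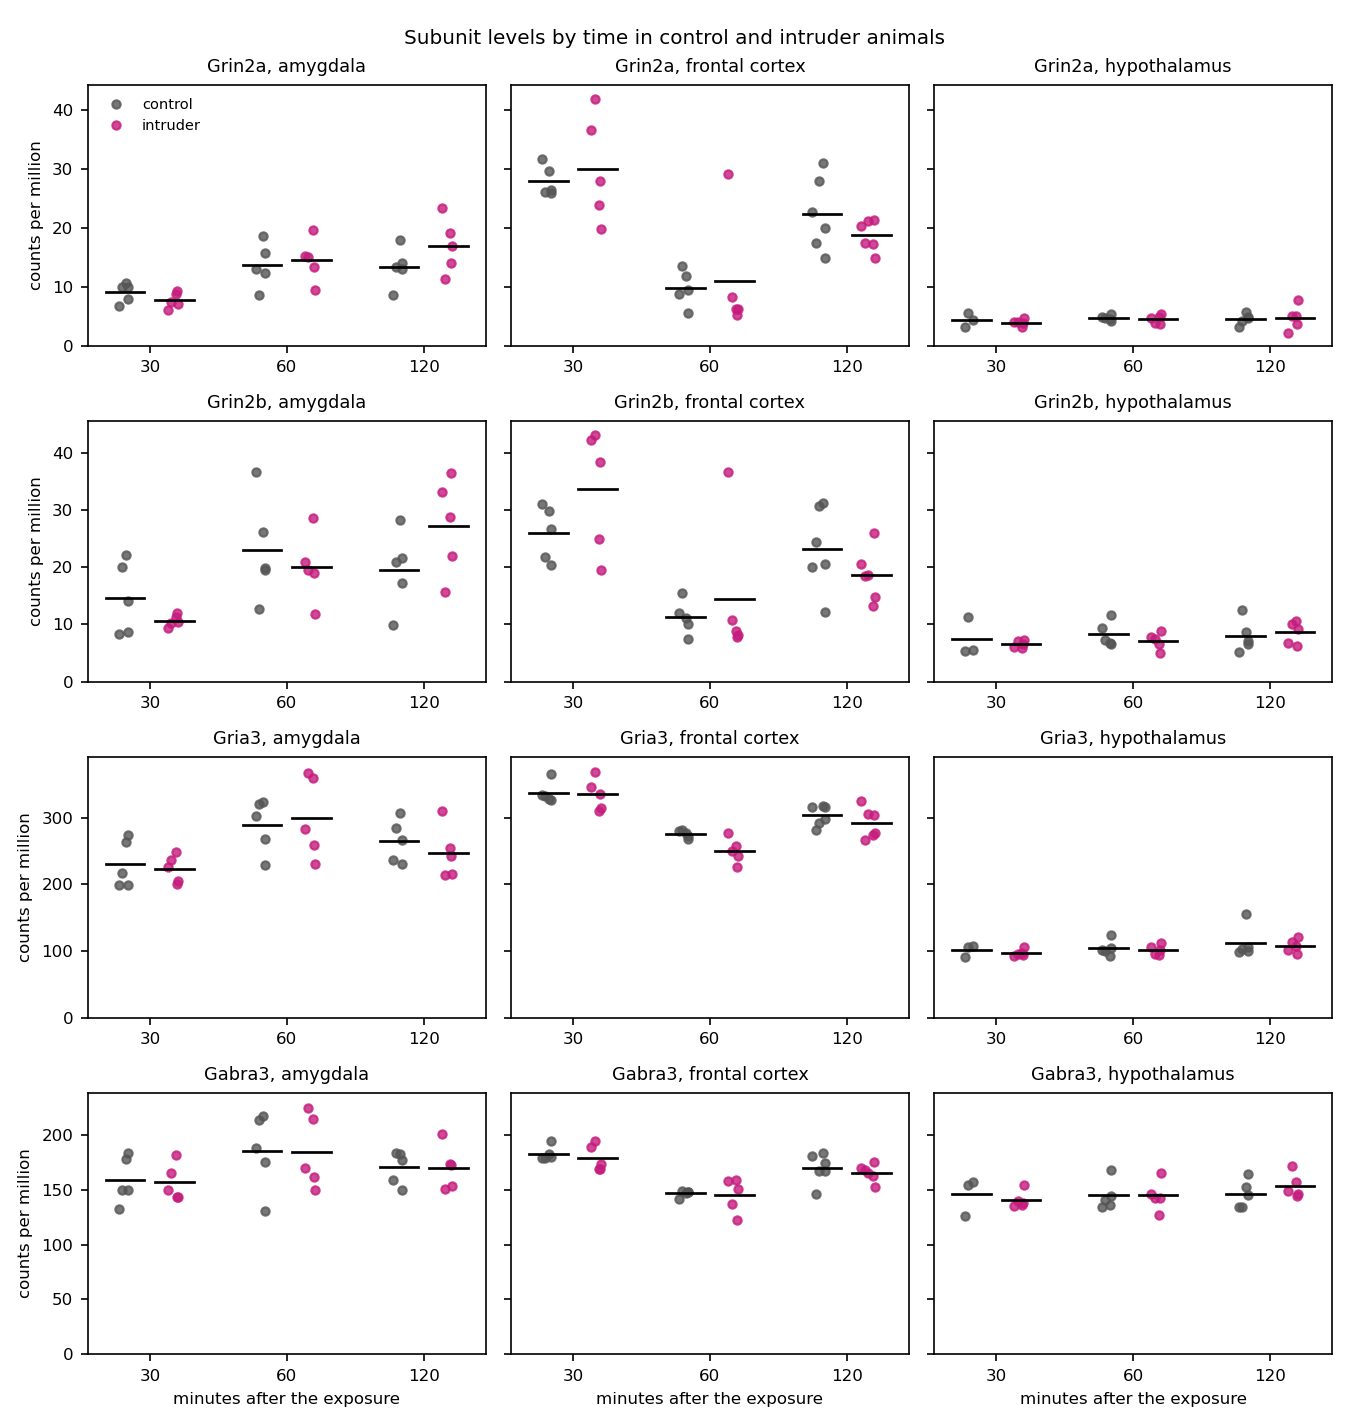
Level of Grin2a, Grin2b, Gria3 and Gabra3 in every library (CPM) by region, time and condition, with a line at each group's mean. In frontal cortex all 4 genes lie lower at 60 min than at 30 min in control and intruder animals, and 1 intruder library at 60 min stays high in Grin2a (29.1 CPM) and Grin2b (36.6 CPM).

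Levels also differed with time after the encounter, and in control animals only frontal cortex had members called. Of 34 members tested there, 14 differed between 30, 60 and 120 min in controls (33.4% of all genes, and 9 members without 60 min control replicate 5) and 18 in intruder-exposed animals (46.1% of all genes). In amygdala the counts were 0 in controls (0.232% of all genes) and 4 in intruder animals (12.9% of all genes, and 7 members without 60 min control replicate 6, 60 min intruder replicate 5 or 120 min intruder replicate 1), and in hypothalamus 0 (0.181% of all genes) and 0 (1.49% of all genes). At an unadjusted p below 0.05, control amygdala had 5 members, and 1 hypothalamus member in controls and 4 hypothalamus members in intruder animals passed edgeR's test (10.9%, 9.88% and 14.4% of all genes), and DESeq2 called 0 in each of these cases. All 28 libraries at 30 min carry a header token that none of the 30 libraries at 60 min or 32 at 120 min has, whose meaning is not given, so a step from 30 min to later times cannot be told apart from whatever that token marks. In frontal cortex the times share no leading index within controls or within intruder animals, and no 30 min library shares one with a later library, so the steps from 30 min and the control steps cannot be told apart from the index.

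Between 30 and 60 min, 12 members fell and 3 rose in control frontal cortex (18.1% and 17.2% of all genes). The largest well-measured drops were in Grin2a and Grin2b. Grin2a stood at 31.7, 29.7, 26.0, 26.4 and 25.9 CPM in the controls at 30 min, at 8.74, 11.7, 13.5, 5.58 and 9.38 at 60 min, and at 14.8 to 30.9 (median 21.2) at 120 min. Every 60 min control lay below every 30 min control and every 120 min control. The log2 change from 30 to 60 min was -1.52 (SE 0.32, adjusted p = 0.000647), and from 60 to 120 min it was 1.19 (SE 0.31, adjusted p = 0.0147). Grin2b moved alike, from 31.1, 29.8, 21.8, 20.5 and 26.7 CPM at 30 min to 12.0, 11.1, 15.5, 7.51 and 10.2 at 60 min and 12.1 to 31.1 (median 22.5) at 120 min. Its log2 changes were -1.22 (SE 0.33, adjusted p = 0.00483) and 1.05 (SE 0.32, adjusted p = 0.0263), and neither later rise is called without 60 min control replicate 5 (1.03 for Grin2a and 0.93 for Grin2b).

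Intruder-exposed frontal cortex, in separate animals but with the same split of index and header token between 30 and 60 min, also had lower levels at 60 min. Grin2a stood at 36.6, 23.8, 41.8, 27.9 and 19.7 CPM at 30 min and at 29.1, 6.21, 8.19, 5.27 and 6.20 at 60 min. Replicate 1 at 60 min kept a 30 min level of both Grin2a and Grin2b (36.6 CPM, against 7.88 to 10.8 in the other 4). The log2 change in Grin2a was -1.46 (SE 0.32, adjusted p = 0.000465) with that library and -2.22 without it, and in Grin2b -1.23 (SE 0.33, adjusted p = 0.00268) and -1.93.

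Gria3 and Gabra3 changed less and with little spread. Gria3 stood at 334, 328, 333, 366 and 326 CPM in control frontal cortex at 30 min and at 279.9, 278, 282, 273 and 268 at 60 min, without overlap (log2 -0.30, SE 0.055, adjusted p = 0.000177). In intruder animals it went from 346, 311, 369, 335 and 315 to 278, 257, 249.6, 226 and 243 CPM (log2 -0.43, SE 0.055, adjusted p = 9.66e-07). At 120 min it stood at 282 to 318 CPM in controls and 266 to 325 in intruder animals, and only the intruder animals remained called below 30 min (log2 -0.20, SE 0.052, adjusted p = 0.00957). Whether that last change differed between controls and intruder animals was tested with all times together, and no member was called. Gabra3 fell from 179, 183, 179, 194 and 179.6 CPM in controls to 142, 147, 149, 148 and 148 CPM (log2 -0.33, SE 0.059, adjusted p = 0.000165), and its intruder change was -0.31 (SE 0.059, adjusted p = 0.000107).

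Other GABA-A members that fell between 30 and 60 min in both conditions included Gabrb1 (-0.50 in controls and -0.63 in intruder animals), Gabra2 (-0.44 and -0.63) and Gabrb2 (-0.31 and -0.40). The AMPA genes Gria2 (-0.28 and -0.43) and Gria4 (-0.17 and -0.19) fell as well. Gabra5, an extrasynaptic alpha subunit, rose in both (0.27 and 0.31). Over this interval 14 intruder members were called (45.5% of all genes). Called in controls alone were Gria1 (0.18), Gabrr2 (0.99) and Gabra6 (-2.88), and those called in intruder animals alone included Grik5 (0.18). The Gabra6 change rested on the high 30 min control replicate 1 (2.35 CPM) and was -1.54 and not called without it. The calls of Gria1 and Grik5 were also lost on leaving out some single library.

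From 60 to 120 min, 8 members rose in control frontal cortex and 0 fell (8.84% and 7.03% of all genes), among them Grin2a, Grin2b, Gabrb1 (0.39), Gabra2 (0.37), Gabrb2 (0.25), Gabra3 (0.21) and Grid1 (0.15). Each of these 8 calls was lost on leaving out some single library. In intruder animals 11 rose and Grik5 fell (12.9% and 10% of all genes), with Gabre (2.26), Gabra2 (0.45), Gabrb2 (0.30), Grik3 (0.28), Gria2 (0.25) and Gria3 (0.23) among them. All 12 of these calls were lost with the leading index as a block (intruder libraries carry one index at 60 min and another at 120 min), and 10 of the 12 were lost on leaving out some single library. From 30 to 120 min a single control member was called, Grid1 (0.18, 4.42% of all genes), and 5 intruder members (17.7% of all genes): Gria3, Grin2b (-0.85), Gabra5 (0.33), Grik3 (0.32) and Gabre (1.93). Without the 120 min intruder library with raised hypothalamic markers, Gabre was called in neither interval (0.03 from 60 min and -0.30 from 30 min). From 30 to 120 min the calls of Grid1 in controls and Grin2b in intruder animals were also lost on leaving out some single library and without the filter on low counts, and that of Grin2b with the groups compared alone and without the 7 libraries.

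Transcript length, glial markers and reads outside annotated features moved with time in frontal cortex, and their part in the members' changes was not tested. From 30 to 60 min in controls, the median log2 change was 0.13 over genes with up to 3036 bp of exon and -0.13 over genes with 5594 bp or more, a group that holds 24 of 34 members (median -0.12). In intruder animals the same medians were 0.17, -0.17 and -0.21. The 6 astrocyte markers summed to 4520 to 5130 CPM in controls at 30 min and 3350 to 4270 at 60 min, and the 6 oligodendrocyte markers to 3000 to 3820 and 4380 to 6770. The cortical excitatory neuron genes overlapped between the times (2240 to 2490 and 2370 to 2610 CPM). Reads in no feature were given as a share of a library's reads, assigned to genes or not. In controls they were 11 to 12.7% at 30 min and 8.99 to 9.71% at 60 min, without overlap. In intruder animals they were 11.4 to 13.2% and 8.63 to 10.3%. The intruder library that stayed high in Grin2a and Grin2b at 60 min had the highest of these shares in its group (10.3%, against 8.63 to 9.54% in the other 4).

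In the amygdala of intruder animals, Grin2a and Grin2b changed the other way. Grin2a stood at 6.09, 8.68, 7.47, 9.23 and 7.11 CPM at 30 min, at 15.1, 19.6, 15.1, 13.3 and 9.48 at 60 min, and at 23.4, 19.0, 11.3, 13.95 and 16.9 at 120 min. The 30 min libraries lay below every later one. The rise from 30 to 120 min was 1.13 on the log2 scale (SE 0.21, adjusted p = 0.000991) for Grin2a and 1.35 (SE 0.30, adjusted p = 0.00348) for Grin2b, which went from 9.33 to 12.1 CPM at 30 min to 15.6 to 36.5 at 120 min. Over that interval 6 members were called (15% of all genes), with Gabrb1 (0.51), Gabrb2 (0.33) and Grik2 (0.24) higher and Grin1 (-0.19) lower, and from 30 to 60 min 2 were called (7.41% of all genes), Grin2a (0.91) and Gria3 (0.42). Gabrr1 was also called over the 3 times (adjusted p = 0.0181) at a level of 0.0412 to 0.241 CPM. The leading sequencing index of the libraries follows the time groups, and with that index as a block all 4 calls over the 3 times, all 6 from 30 to 120 min and both from 30 to 60 min were lost. The rise of Grin2b from 30 to 120 min was then larger, at 2.89 on the log2 scale. The share of reads in no annotated feature, among reads assigned to genes or not, was 10.8 to 12% in intruder amygdala at 30 min. It was 11.7 to 13.8% at 60 min and 12.3 to 13.5% at 120 min, and its part in these changes was not tested. In control amygdala the same genes were not called, with a log2 difference of 0.56 (SE 0.21, adjusted p = 0.47) for Grin2a between 30 and 120 min. The test of an intruder effect that differs between times called 0 members in amygdala (0% of all genes), so a difference between control and intruder time courses was not shown.

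The control time course itself differed between regions for 10 members (22.1% of all genes). Among them were Grin2a (adjusted p = 0.000234), Grin2d, Gria2, Grin2b, Gabra2, Gria3, Gabrb1 and Gabra3. The calls of Gabra2, Gria3, Gabrb1 and Gabra3 were lost on leaving out some single animal, and that of Gabra3 also with both other scalings, without the filter on low counts and without the 7 libraries. Leaving out 1 animal at a time left 6 to 11 calls, with 6 on leaving out the control at 30 min replicate 1 or the control at 60 min replicate 1.

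**Figure D5:**
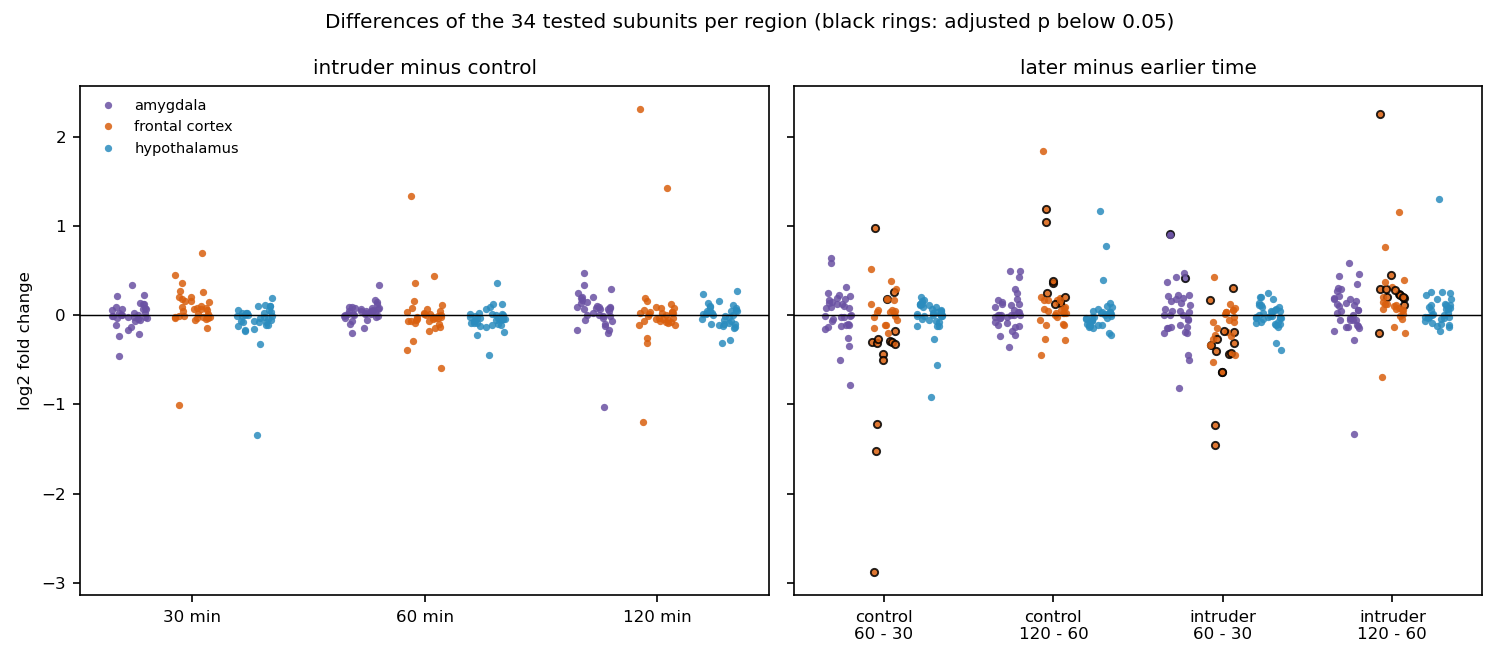
Log2 differences of the 34 tested members in each region, for intruder against control at each time and for 60 against 30 and 120 against 60 min, with rings where the adjusted p is below 0.05. No comparison of intruder with control has a ring, while frontal cortex has 15 (controls) and 14 (intruder animals) between 30 and 60 min.

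The intruder changed no member at an adjusted p below 0.05 with edgeR's quasi-likelihood test, in any of the 9 comparisons of region and time, and DESeq2 also called 0 members in each. With the replicate number as a block, 1 member, Grin1 in amygdala at 120 min, was called. Over all genes the share called was 0.538% in amygdala and 0.192% in hypothalamus at 120 min and 0% in the other 7 comparisons. At an unadjusted p below 0.05 there were 4 members in amygdala at 120 min (15.1% of all genes), 1, 2 and 2 in frontal cortex at 30, 60 and 120 min (6.28%, 2.54% and 5.34% of all genes) and 0 in amygdala at 30 and 60 min (2.74% and 7.13%) and in hypothalamus at each time (1.92%, 2.22% and 11.5%). No member was called for the effect averaged over times (smallest unadjusted p 0.0112, Gabrq in frontal cortex), for an effect that differs between times (0.0105, Grin1 in amygdala) or for one that differs between regions (0.00431, Gabre at 120 min), where 0.0164% of all genes were called at 120 min and 0% before. Over all genes 0.0113% were called for a difference between times in hypothalamus and 0% in the other regions.

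The member with the smallest p in amygdala was Grin1 at 120 min. It stood at 514, 545, 506, 532 and 479.7 CPM in controls and at 501, 483, 431, 419 and 404 in intruder animals. The ranges overlapped through the lowest control. The log2 difference was -0.20 (SE 0.064, unadjusted p = 0.00373, adjusted p = 0.128), and -0.21 and called with the replicate number as a block. At 30 min it was Grik1 (0.14, SE 0.088) and at 60 min Grin2d (0.17, SE 0.088).

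In frontal cortex the member with the smallest p was Gabre at 120 min, with a log2 difference of 2.32 (SE 0.67, unadjusted p = 0.00159, adjusted p = 0.44). It stood at 0.0604 to 0.233 CPM in controls (median 0.195) and at 4.07, 0.109, 0.153, 0.233, 0.234 and 0.183 CPM in intruder animals. A single library made the difference, the one with raised hypothalamic markers, and without it the log2 difference was 0.09. Grik1 at 30 min (0.27, SE 0.10) and Gria3 at 60 min (-0.14, SE 0.055) had the smallest p at the other times.

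In hypothalamus, the region where Gabre, Gabrq and Grin2d are highest, the smallest unadjusted p was 0.0714, for Grid1 at 120 min (-0.08, SE 0.044). At 60 min Gabrg3 (-0.12, SE 0.077) came first. The median absolute difference over the members was 0.07, 0.07 and 0.08 at 30, 60 and 120 min, against 0.05, 0.05 and 0.08 over all genes. Gabrq stood at 103 to 152 CPM in control and 92.7 to 129 CPM in intruder hypothalamus at 120 min. None of the partner genes listed above was called in any intruder comparison. A p above the threshold does not show that intruder and control animals were alike, and the spread between animals (coefficient of variation 14.1% for amygdala, 11% for hypothalamus and 10.3% for frontal cortex) sets how small a change could be called.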

How the data were processed

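The submitters' processing notes name CASAVA 1.8.2, TopHat2 2.0.8, HTSeq 0.6.1, edgeR 3.2.4, R 3.0.0 and the build NCBIM37, with no role for each. Libraries were stranded, single-end and made from polyadenylated RNA, per the labels' protocols, whose design text also speaks of pooled RNA without saying what was pooled. The values the authors deposited are raw read counts per gene, with 5 rows for reads not assigned to a gene, left out here. Of the reads in all rows together, 8.63 to 14.5% were in no feature, 0.634 to 0.761% were ambiguous and 9.79 to 11.5% had several alignments. Symbols came from GENCODE M21, which named 32919 of 37991 identifiers (at most 0.72% of a library's reads had none). No 2 libraries of a group agreed within counting noise.

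Tests used edgeR 4.0.16 in R 4.3.3: quasi-likelihood F tests after filterByExpr and TMM scaling, with Benjamini-Hochberg adjustment over all genes and calls at 0.05. Regions were compared in 1 fit of all libraries with the animal as a block, since labels tie regions to animals (median same-animal correlations of deviations 0.0384 to 0.207). Time and intruder comparisons used 1 fit per region with 6 groups. Printed CPM are TMM-scaled over all libraries, and per-kilobase levels use the union of GENCODE M21 exons. Any member could be named in region comparisons; for time and intruder comparisons, called members or else that with the smallest p; for partner genes, up to 2 called in each direction with the largest change. Alternatives were DESeq2 1.42.0, 2 other scalings, no filter, control libraries alone, groups compared alone, replicate and index blocks, and each library or animal left out. The members and lists were chosen with earlier results of these data known. Some genes are not reported here by name, though they stayed in every fit and count. The steps were tested on simulated counts. For GRCm38 only promoter windows are located, since it is not the named build.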

Additional observations from a re-analysis of the deposited data

Results flagged for a closer look

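For 11 members, 187 groups of 5 or 6 libraries were searched for a library far from the rest of its group. Such values came up 24 times in 18 libraries, where about 9 are expected by chance (about 1 in 20 groups). Frontal cortex 120 min intruder replicate 1, the library with raised hypothalamic markers, stood alone in Gabre (4.07 CPM, others 0.109 to 0.234), Gabrq (11.1 CPM, others 0.743 to 1.19), Gabrg1 (43.2 CPM, others 21.3 to 29.4) and Grin2d (20.9 CPM, others 13.8 to 15.5), all members that are higher in hypothalamus than in frontal cortex. Hypothalamus libraries with raised thalamic or cortical markers stood alone in Gabra4 (120 min control replicate 6, 83.5 CPM; 120 min intruder replicate 3, 80.4 CPM), in Gabra6 (120 min intruder replicate 6, 3.74 CPM) and in Gria3 (120 min control replicate 2, 155 CPM). The amygdala library with raised cerebellar markers held 26.2 CPM of Gabra6 (others at most 0.0657). Frontal cortex 60 min intruder replicate 1 stood alone in Grin2a (29.1 CPM, others 5.27 to 8.19) and Grin2b (36.6 CPM, others 7.88 to 10.8).

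Other values also lay far from their group. Frontal cortex 30 min control replicate 4 was high in Gria3 (366 CPM) and Gabra3 (194 CPM) and low in Gabrq (0.522 CPM), replicate 1 of that group was high in Gabra6 (2.35 CPM), and 60 min control replicate 1 was low in Gabra3 (142 CPM). Frontal cortex 30 min intruder replicate 2 was high in Gabrg1 (37.2 CPM), and amygdala 60 min intruder replicate 5 was high in Gabrd (50.02 CPM). In hypothalamus, Gabra3 was high in 30 min intruder replicate 4 (154.5 CPM) and 60 min control replicate 6 (169 CPM), Gabra4 in 60 min intruder replicate 1 (46.8 CPM), Gabra6 in 30 min intruder replicate 1 (1.38 CPM) and Gabre in 60 min intruder replicate 3 (48.6 CPM). Hypothalamus 60 min control replicate 3 held 0.0 CPM of Gabra6, where 3 reads would be 0.0572 CPM.

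The change over time in control animals differed between the regions, in edgeR's test of that difference, for Grin2a (adjusted p = 0.000234), Grin2d (0.00398), Gria2 (0.00457), Grin2b (0.00922), Gabra2 (0.0116), Gria3 (0.0173), Gabrb1 (0.022) and Gabra3 (0.0486). The last of these was lost under 4 processing alternatives, and Gabra2, Gria3, Gabrb1 and Gabra3 were lost on leaving out some single animal.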

How the results depend on the processing

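The 28 counts of called members were recomputed under 190 settings other than leaving out a library or animal, and 188 stayed within 1.5 times the reported count. Intruder and control animals were not paired by their numbers. Within no set did every same-numbered pair correlate above 0.1, but neither did every same-animal pair, so this check cannot show that pairing is absent. Medians of same-numbered pairs ran from -0.0845 to 0.393 (highest in amygdala at 60 min), and those of same-animal pairs from 0.0384 to 0.207. With the replicate number as a block 1 member, Grin1 (-0.21), was called in amygdala at 120 min, where 0 were reported. Under that block 199 genes were called there in place of 93, and no other intruder count of members changed. Without the replicate block of the animal, the region counts were 34, 31 and 30, and the control time course differed between regions for 9 members. With the leading index as a block, amygdala intruder animals had 0 members differing between times; that block could not be fitted for control frontal cortex. Leaving out 1 library or animal gave 33 to 34, 31 to 32 and 29 to 31 members for frontal cortex against hypothalamus, amygdala against hypothalamus and amygdala against frontal cortex, 6 to 11 for the control time course between regions, 9 to 15 for control and 14 to 18 for intruder frontal cortex over time (9 without 60 min control replicate 5), and 4 to 7 for intruder amygdala (7 without 60 min control replicate 6, 60 min intruder replicate 5 or 120 min intruder replicate 1); the other counts stayed at 0. Gabre reversed from 30 to 120 min in intruder frontal cortex (-0.30) without 120 min intruder replicate 1 and without the 7 libraries chosen after seeing the data, and leaving out 1 library at a time gave it -0.30 to 2.18. In the control libraries alone, Gabra5 lost its call between frontal cortex and hypothalamus and Gabrr2 and Grin3b theirs between amygdala and frontal cortex. Depth limits Gabrp, Gabrr3, Gabrr1, Gabra6, Grin3b, frontal cortex Gabre and Gabrq, and Gabrr2 outside hypothalamus, at under 1 CPM in most libraries, where counting error alone is large. Why these values moved was not tested.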

Other observations

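The partner genes of the receptors were also compared in amygdala, by edgeR's test over all genes. It called 80.5% of all genes against hypothalamus and 77% against frontal cortex. Against hypothalamus, 12 of 14 glutamate receptor scaffold genes were higher in amygdala and 1 lower, and 7 of 11 AMPA receptor auxiliary subunits were higher and 2 lower (40.7% of all genes were called higher and 39.8% lower). Both kainate receptor auxiliary subunits were higher in amygdala than in hypothalamus, and both were lower than in frontal cortex. Against frontal cortex, 9 scaffold genes were lower in amygdala and 2 higher (35.8% of all genes were called lower and 41.2% higher), and the AMPA auxiliary subunits split evenly, 5 higher and 5 lower. Of 5 glycine receptor subunits, 3 were lower in amygdala than in hypothalamus (39.8% of all genes) and 4 were higher than in frontal cortex (41.2%). The cerebellin genes, ligands of delta receptors, were lower in amygdala for 3 of 4 tested against hypothalamus (39.8% of all genes) and 2 of 4 against frontal cortex (35.8%).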
